A study of Mus musculus with 9 samples.

Results

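The transcripts described here encode the cell's oxygen-sensing system, the hypoxia-inducible factor (HIF) pathway, in the retina of diabetic mice. The set holds 10 genes of the 35397 in the deposited table: the oxygen-regulated alpha subunits Hif1a and Epas1, their partner subunit Arnt, the prolyl hydroxylases Egln1, Egln2 and Egln3, the ubiquitin ligase subunit Vhl, and the target genes Ndrg1, Adm and Bnip3. They were taken by symbol. RNA from whole retina was sequenced in 4 libraries from db/db mice, named db/db 1, 3, 4 and 5 after their labels, and in 5 libraries from wild-type (WT) mice, WT 1 to 5. The db/db mouse carries a mutation of the leptin receptor gene in every cell, and becomes obese and diabetic. The labels used here state no age, sex, strain background or treatment for either group. They do not say whether libraries come from different animals, so a p-value here reflects differences among libraries, which may be technical. Values are FPKM, fragment counts divided by length and by library depth. The length that fits the values is that of all annotated exons of a gene joined. Levels of different genes are therefore compared per exon base, and this length can exceed that of the transcript in use.

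HIF is a pair of proteins, an alpha subunit and ARNT, that binds DNA at hypoxia response elements with the core ACGTG or GCGTG. While oxygen is present, the EGLN enzymes hydroxylate prolines of the alpha subunit, the VHL ligase recognises the hydroxylated form, and the proteasome destroys it. When oxygen falls this step slows, the alpha subunit accumulates, and HIF turns on genes of glycolysis, blood vessel growth, mitochondrial turnover and the prolyl hydroxylases themselves. The photoreceptors make the retina a heavy consumer of oxygen, and HIF targets such as Vegfa are central to vessel growth in diabetic eye disease. Control of the alpha subunits acts mainly on protein, which mRNA does not show.

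Between 36.6 M and 47.9 M reads stood behind each library, as recovered from the steps in the FPKM values. Rod markers summed to 11631 to 13289 FPKM in db/db and 11271 to 12046 FPKM in WT, and no marker on any of the 12 cell type lists was at 0 in all libraries. The library db/db 1 stood apart, with the highest or the lowest value of the 9 libraries for 71.4% of the 14588 genes tested and for 6 of the 10 HIF pathway genes. Its summed FPKM was 311179, against 252832 to 268139 in the other libraries. Markers of the retinal pigment epithelium summed to 420.8 FPKM in it, against 85.7 to 210.3 FPKM in the other libraries, and those of red blood cells to 72.6 FPKM, against 14.6 to 26.1 FPKM. Results are therefore also given without db/db 1. Leaving it out does not remove all differences in markers. Lens markers summed to 193.2 FPKM in db/db 5, against 1.74 to 92.7 FPKM in the other libraries. Horizontal cell markers summed to 49.3 to 69.1 FPKM in db/db and 45.6 to 47.7 FPKM in WT, with no overlap. The sums of the other lists overlapped between the groups. Changes are given as log2 changes of FPKM + 1, db/db over WT, which understates the changes of scarce transcripts. All 4 db/db libraries had values that leaned towards GC-rich transcripts, with rank correlations over genes between GC content and the difference from the WT mean of 0.21, 0.24, 0.39 and 0.58 in db/db 1, 3, 4 and 5, against -0.21 to 0.18 in the WT libraries. Genes are not independent replicates, and these correlations describe the libraries. The WT libraries make up the WT mean, so their differences cancel in each gene and the contrast is partly fixed in advance. Because the lean goes with group, correcting for it can also remove a difference between the groups. A GC correction, which subtracts in each library the median deviation of transcripts of like GC content, is given for the HIF pathway genes it moves and, more briefly, for the other genes named.

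The comparison of db/db with WT asked whether the oxygen-sensing genes differ in the diabetic retina. None of the 9 HIF pathway genes that reached a mean of 1 FPKM passed an adjusted p of 0.05 (limma, Benjamini-Hochberg over all 14588 genes), where 0.5% of all genes did. Egln2 was higher in every db/db library than in any WT library, and Hif1a was lower in every db/db library than in any WT library. Ndrg1 leaned higher and Bnip3 lower, with overlapping groups. These 4 genes had an unadjusted p under 0.05, as did 19.3% of all genes tested, and limma-voom on the recovered reads called 0 of the 9 as well. The adjusted p of the 9 genes ran from 0.0879 for Egln2 to 0.903 for Epas1, and their median log2 change was -0.045 beside 0.0035 over all genes tested. Without db/db 1 that median was 0.031, beside -0.017 over all genes. Without db/db 1 and 4 it was -0.0083, beside -0.0070 over all genes, so its sign depended on the libraries kept. The remaining gene, Adm, lay below the filter.

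**Figure D1:**
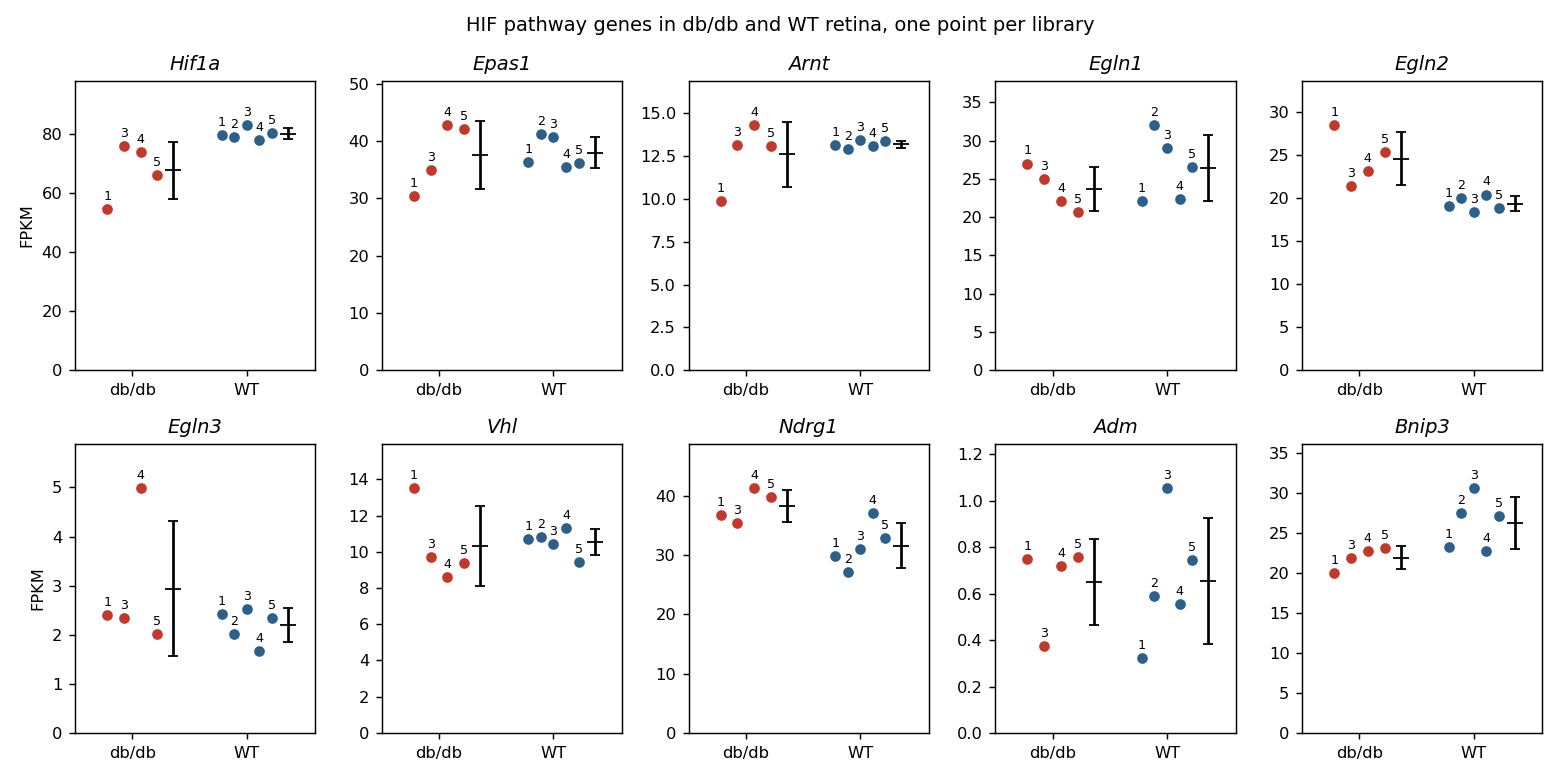
FPKM (y axis, from 0) of the 10 HIF pathway genes in db/db libraries (red, left) and WT libraries (blue, right), with 1 point per library labelled by its number, and black marks for the mean and SD. The points of Hif1a and Egln2 do not overlap between the groups, while db/db 1 lies far below the other 8 libraries for Hif1a and Arnt and db/db 4 far above them for Egln3.

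The start regions of 8 of the 10 genes were found among RefSeq promoters (GRCm38.p6). The 250 bases upstream of the start are printed for Hif1a and Egln2, whose values separate the groups, and for the classical targets Bnip3 and Adm, to show where the core of the hypoxia response element occurs. Each is written 5′ to 3′ on the strand of its gene, with matches to ACGTG or GCGTG on either strand in capitals (CACGT and CACGC are the same cores read on the opposite strand).
Hif1a, chr12:73907617-73907866, plus strand: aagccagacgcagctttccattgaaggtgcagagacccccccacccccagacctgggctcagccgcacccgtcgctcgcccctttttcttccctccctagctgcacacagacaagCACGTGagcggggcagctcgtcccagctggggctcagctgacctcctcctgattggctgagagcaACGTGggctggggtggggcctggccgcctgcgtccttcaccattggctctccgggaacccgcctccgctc
Egln2, chr7:27166803-27167052, minus strand: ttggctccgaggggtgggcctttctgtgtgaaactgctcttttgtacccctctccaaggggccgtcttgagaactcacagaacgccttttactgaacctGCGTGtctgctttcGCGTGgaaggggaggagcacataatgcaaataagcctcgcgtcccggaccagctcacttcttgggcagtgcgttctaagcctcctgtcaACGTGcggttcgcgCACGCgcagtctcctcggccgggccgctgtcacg
Bnip3, chr7:138909507-138909756, minus strand: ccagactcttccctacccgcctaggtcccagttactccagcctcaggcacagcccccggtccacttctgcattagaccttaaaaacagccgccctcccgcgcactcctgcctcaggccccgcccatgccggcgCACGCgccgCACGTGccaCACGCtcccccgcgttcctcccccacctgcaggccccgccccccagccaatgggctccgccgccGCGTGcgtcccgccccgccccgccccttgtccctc
Adm, chr7:110627407-110627656, plus strand: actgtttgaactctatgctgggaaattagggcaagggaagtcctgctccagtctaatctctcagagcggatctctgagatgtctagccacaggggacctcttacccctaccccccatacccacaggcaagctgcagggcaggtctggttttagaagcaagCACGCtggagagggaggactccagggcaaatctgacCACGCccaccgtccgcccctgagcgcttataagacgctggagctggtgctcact

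Among these windows Bnip3 held 5 matches, Egln2 held 4, Hif1a held 3 and Adm held 2. The 6-letter run CACGTG, present in Hif1a and Bnip3, reads as a core on both strands and counts as 2 matches. At least 1 match occurred in 38.6% of 32851 mouse windows of the same length, and 4 or more in 2.58%. Of the windows not printed, Egln1 held 2 matches, Arnt, Egln3 and a second start of Egln2 held 1 each, and that of Vhl held 0. The windows with the most matches belong both to Egln2, with the higher values in db/db, and to Bnip3, with lower values there. They hold 59.2% GC in Egln2 and 72.4% in Bnip3, and the shares over all windows were not matched for GC content. A match is a run of letters, and binding was not measured.

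Hif1a (ENSMUSG00000021109, chromosome 12, 73901375 to 73947530, mm10) encodes the alpha subunit found in nearly all cells, and it was the most abundant transcript of the set. It had 54.7, 76.1, 74.0 and 66.2 FPKM in db/db 1, 3, 4 and 5, against 79.6, 79.1, 83.1, 78.1 and 80.6 FPKM in WT 1 to 5. The WT libraries lay within 5 FPKM of each other, and every db/db library was below all of them. The means were 67.7 ± 9.68 FPKM in db/db (SD, n = 4) and 80.1 ± 1.88 FPKM in WT (SD, n = 5), a log2 change of -0.25 (95% interval -0.46 to -0.039) that did not pass over all genes (limma adjusted p = 0.197). Groups lay apart with db/db lower in 6.38% of all genes tested. With db/db 1 left out the log2 change was -0.15 (adjusted p = 0.0842; 0.0842 to 0.910 over 20 alternatives). The Hif1a transcript holds 41.3% GC, and after correction for GC content the log2 change was -0.12 with all 9 libraries and -0.0083 without db/db 1. The antisense gene Gm15283 (mean 1.98 FPKM) covers 5.60% of the exon bases of Hif1a. Whether reads were counted by strand is not known here, so some could belong to either gene.

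Epas1 (ENSMUSG00000024140, chromosome 17, 86753700 to 86833410) encodes the second alpha subunit, HIF-2 alpha, best known from endothelium and other vascular cells. It had 30.4, 35.0, 42.8 and 42.1 FPKM in db/db 1, 3, 4 and 5, against 36.4, 41.3, 40.7, 35.4 and 36.2 FPKM in WT 1 to 5. The db/db libraries lay on both sides of the WT range. Its log2 change was -0.027 (95% interval -0.27 to 0.21, adjusted p = 0.903), which as a fold is an interval of 0.831 to 1.16. Leaving out db/db 1 gave 0.067 (adjusted p = 0.605). The summed level of 10 endothelial markers was 38.5 to 44.3 FPKM in db/db and 34.5 to 40.5 FPKM in WT, with 0 of the 8 that were tested past the threshold, and their part in the Epas1 values was not tested. In whole retina fewer cells of a type cannot be told apart from less RNA per cell.

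In every library Hif1a exceeded Epas1. The ratio of their FPKM was 1.80, 2.18, 1.73 and 1.57 in db/db 1, 3, 4 and 5, against 2.19, 1.92, 2.04, 2.21 and 2.23 in WT 1 to 5. The db/db libraries 1, 4 and 5 lay below all WT libraries, and db/db 3 lay within their range. Hif3a, the third alpha subunit gene, whose products can restrain HIF, was much lower at 2.50 ± 1.41 FPKM in db/db (SD, n = 4) and 3.29 ± 1.13 FPKM in WT (SD, n = 5; log2 change -0.36, adjusted p = 0.519). Its level in db/db 1 was 0.879 FPKM, and without that library the log2 change was -0.091 (adjusted p = 0.826).

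Arnt (ENSMUSG00000015522, chromosome 3, 95434388 to 95497240) encodes HIF-1 beta, the constitutive partner that both alpha subunits need. It had 9.86, 13.1, 14.3 and 13.1 FPKM in db/db 1, 3, 4 and 5, against 13.2, 12.9, 13.4, 13.1 and 13.4 FPKM in WT 1 to 5. The WT libraries were almost level (SD 0.206 FPKM, n = 5), db/db 1 lay far below them and db/db 4 above. The log2 change was -0.074 (95% interval -0.28 to 0.13, adjusted p = 0.681), and 0.031 without db/db 1 (adjusted p = 0.668). Arnt2, its paralog in neurons, stood at 3.77 ± 0.309 FPKM in db/db (SD, n = 4) and 4.10 ± 0.503 FPKM in WT (SD, n = 5). The summed alpha subunit mRNA per Arnt mRNA was 8.62, 8.45, 8.16 and 8.27 in db/db 1, 3, 4 and 5, against 8.82, 9.30, 9.22, 8.68 and 8.72 in WT 1 to 5. The groups did not overlap in this ratio, but they did once Arnt2 was added to Arnt (6.36 to 6.46 in db/db and 6.40 to 7.25 in WT). They also overlapped in the other ratios and shares given here, and how often ratios of other genes separate was not examined. Neither this ratio nor that of Hif1a to Epas1 had the GC correction. The GC content is 41.3% in Hif1a, 52.5% in Epas1 and 47.9% in Arnt.

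Of the oxygen sensors, Egln2 and Egln1 were nearly as abundant as each other and Egln3 was scarce. Egln2 (ENSMUSG00000058709, chromosome 7, 27158658 to 27166802) encodes PHD1, a nuclear prolyl hydroxylase. It had 28.5, 21.4, 23.1 and 25.4 FPKM in db/db 1, 3, 4 and 5, against 19.0, 20.05, 18.4, 20.4 and 18.8 FPKM in WT 1 to 5. Every db/db library was above every WT library, and db/db 1 was the highest. The means were 24.6 ± 3.06 FPKM in db/db (SD, n = 4) and 19.3 ± 0.865 FPKM in WT (SD, n = 5), a log2 change of 0.33 (95% interval 0.14 to 0.51) with a limma adjusted p of 0.0879. Groups lay apart with db/db higher in 5.2% of all genes tested.

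Once db/db 1 was left out, Egln2 passed (log2 change 0.26, limma adjusted p = 0.0314; 0.0314 to 0.428 over 20 alternatives), the single HIF pathway gene to do so of 9, where 10.6% of all genes passed in that fit. Its transcript holds 62.2% GC, the highest share of the 10 genes. With the GC correction its log2 change was 0.18 with all 9 libraries (adjusted p = 0.226) and 0.15 without db/db 1 (adjusted p = 0.0909). In those fits 0.0414% and 4.98% of all genes passed, and 0 of the 9 HIF pathway genes. Exons of Cyp2t4 share 11 bases with Egln2 on the opposite strand.

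Egln1 (ENSMUSG00000031987, chromosome 8, 124908587 to 124949324) encodes PHD2, the main hydroxylase of HIF-1 alpha in most cells. It had 27.0, 24.997, 22.1 and 20.7 FPKM in db/db 1, 3, 4 and 5, against 22.1, 32.0, 29.0, 22.4 and 26.5 FPKM in WT 1 to 5. The WT libraries themselves were spread widely and the groups overlapped. The log2 change was -0.14 (95% interval -0.42 to 0.13, adjusted p = 0.536). Leaving out db/db 1 gave -0.21 (adjusted p = 0.279), and the GC correction gave -0.26 (adjusted p = 0.413).

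Egln3 (ENSMUSG00000035105, chromosome 12, 54178981 to 54203860) encodes PHD3, itself a strongly HIF-induced gene. It had 2.40, 2.35, 4.99 and 2.02 FPKM in db/db 1, 3, 4 and 5, against 2.43, 2.02, 2.53, 1.67 and 2.33 FPKM in WT 1 to 5. Only db/db 4 lay outside the WT range. The log2 change of 0.25 (95% interval -0.17 to 0.68, adjusted p = 0.477) became 0.034 without db/db 4 (adjusted p = 0.850). Between 197 and 547 reads per library stood behind these values.

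Among the 3 hydroxylases, Egln2 supplied 49.2%, 43.9%, 46.0% and 52.8% of the summed FPKM in db/db 1, 3, 4 and 5, against 43.7%, 37.1%, 36.8%, 45.9% and 39.4% in WT 1 to 5. Egln2 exceeded Egln1 in db/db 1, 4 and 5 and in none of the WT libraries, where the ratio of Egln2 to Egln1 was 0.626 to 0.912. In db/db 3 that ratio was 0.857. The sum over the 3 genes overlapped between the groups, at 48.1 to 57.9 FPKM in db/db and 43.6 to 54.1 FPKM in WT. These shares and ratios had no GC correction, while the transcripts hold 62.2% GC in Egln2 and 56.0% in Egln1.

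**Figure D2:**
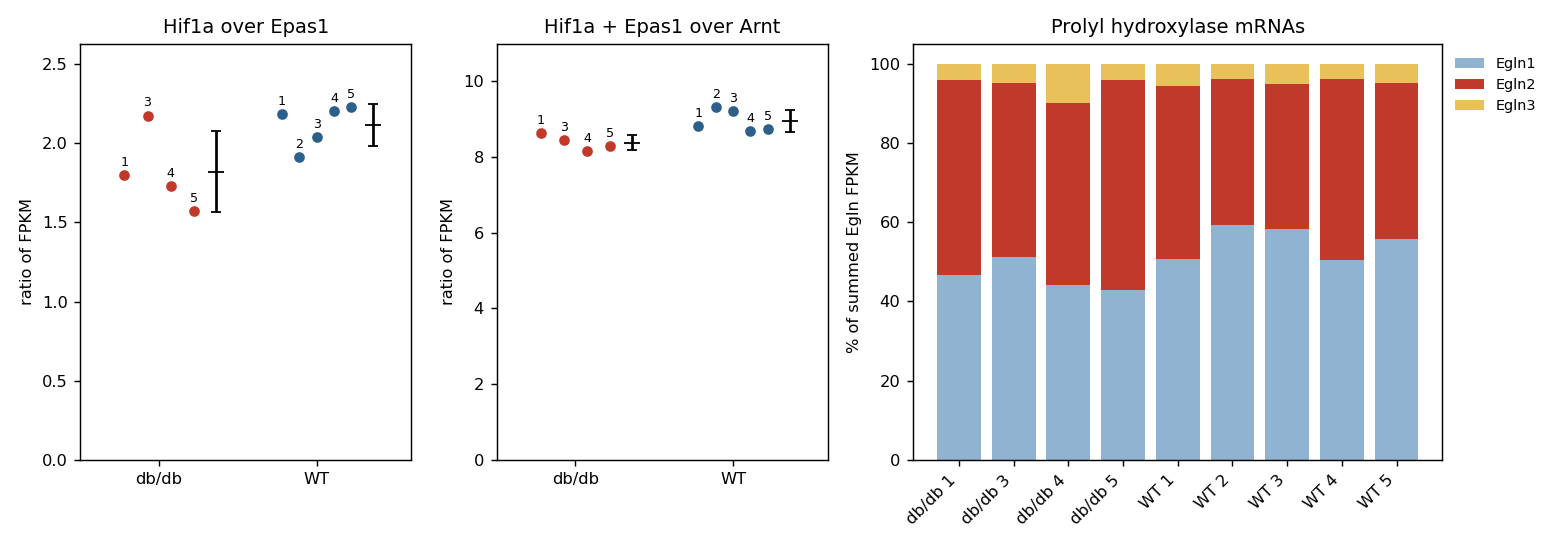
Ratios of FPKM of Hif1a to Epas1 and of Hif1a plus Epas1 to Arnt (left and middle, 1 point per library labelled by number, black marks for mean and SD), and the shares of the 3 prolyl hydroxylase genes in their summed FPKM in each library (right, in percent). The ratio to Arnt is 8.16 to 8.62 in db/db and 8.68 to 9.30 in WT, and the Egln2 share is 43.9% to 52.8% in db/db and 36.8% to 45.9% in WT. The values are without the GC correction.

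Vhl (ENSMUSG00000033933, chromosome 6, 113623959 to 113631633) encodes the subunit that recognises hydroxylated alpha subunits. It had 13.5, 9.71, 8.62 and 9.39 FPKM in db/db 1, 3, 4 and 5, against 10.7, 10.8, 10.4, 11.3 and 9.42 FPKM in WT 1 to 5. The library db/db 1 was the highest of all 9, while db/db 4 and 5 were the lowest. The log2 change was -0.045 (95% interval -0.30 to 0.21, adjusted p = 0.847), -0.17 without db/db 1 (adjusted p = 0.102) and 0.027 without db/db 4 (adjusted p = 0.894).

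The partners of Vhl and other genes that set the stability of the alpha subunits formed a list of 14, all tested. Of these 0 passed in either direction, where 0.5% of all genes tested did. Their median log2 change was 0.068, beside 0.0035 over all genes tested, and -0.025 without db/db 1, beside -0.017 over all genes. The 4 with the smallest p were Usp20, a deubiquitinase that can stabilise HIF-1 alpha (0.18, limma adjusted p = 0.133), Rack1, a scaffold that promotes degradation of HIF-1 alpha without oxygen sensing (0.38, adjusted p = 0.160), and Siah2 and Siah1a, ligases that act on the EGLN enzymes (0.17 and 0.15, adjusted p = 0.351 and 0.357). Usp20 was between 7.90 and 9.07 FPKM in db/db and between 7.12 and 7.47 FPKM in WT. Its groups did not overlap, where 5.2% of all genes tested lay apart with db/db higher. The GC correction took its log2 change to 0.059 and that of Siah2 to 0.053, while Rack1 had 0.38 and Siah1a 0.25. In the fit without db/db 1, where 10.6% of all genes passed, 2 of the 14 did, Usp20 higher (0.20, adjusted p = 0.0284) and the chaperone gene Hsp90aa1 lower (-0.21, adjusted p = 0.0492). Neither passed with the GC correction as well (Usp20 0.12, adjusted p = 0.0803; Hsp90aa1 -0.11, adjusted p = 0.135). In that fit, where 4.98% of all genes passed, 1 of the 14 did, Elob, a partner of Vhl, as lower (-0.27, limma adjusted p = 0.0457). With all 9 libraries and no correction Elob had 0.13 (adjusted p = 0.778). Rack1 was 0.24 and Siah1a 0.071 without db/db 1. Hsp90aa1 was named after its values were seen.

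Of 10 further subunit and coactivator genes, 0 passed, where 0.5% of all genes tested did. Their median log2 change was -0.067, and 0.092 without db/db 1, beside 0.0035 and -0.017 over all genes tested. Cited2, a HIF target that competes with HIF for its coactivators, was 42.2 to 55.1 FPKM in db/db and 35.4 to 40.8 FPKM in WT, with no overlap (0.27, limma adjusted p = 0.156; 0.16 with the GC correction). Groups lay apart in this direction in 5.2% of all genes tested. Hif1an encodes FIH, an asparagine hydroxylase that blocks coactivator binding. It was 20.9 ± 3.05 FPKM in db/db (SD, n = 4) and 21.3 ± 1.29 FPKM in WT (SD, n = 5; log2 change -0.041, adjusted p = 0.841). Cited4 and the general transcription factor gene Sp1 had log2 changes of 0.24 and -0.20 (adjusted p = 0.339 and 0.338), which were 0.14 and -0.094 without db/db 1 and 0.088 and -0.12 with the GC correction. When db/db 1 was left out the coactivator gene Crebbp passed (0.27, adjusted p = 0.0216), as it did with the GC correction added (0.24, adjusted p = 0.0389). Crebbp was 1 of 10 to pass in each of these fits, where 10.6% and 4.98% of all genes passed. With all 9 libraries it had 0.10 (adjusted p = 0.711), and it was named after its values were seen.

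Among the targets, Ndrg1 (ENSMUSG00000005125, chromosome 15, 66929318 to 66969640) encodes a stress-responsive protein of the NDRG family, long used as a readout of hypoxia. It had 36.7, 35.3, 41.3 and 39.7 FPKM in db/db 1, 3, 4 and 5, against 29.9, 27.1, 31.0, 37.1 and 32.8 FPKM in WT 1 to 5. Apart from WT 4, the WT libraries lay below all db/db libraries. The means were 38.3 ± 2.73 FPKM in db/db (SD, n = 4) and 31.6 ± 3.74 FPKM in WT (SD, n = 5), a log2 change of 0.27 (95% interval 0.067 to 0.48, limma adjusted p = 0.159). It was 0.29 without db/db 1 (adjusted p = 0.0730) and 0.26 with the GC correction (adjusted p = 0.258), and 0.22 to 0.33 over 20 alternatives. Ndrg1 is also known from myelinating cells, and 6 myelin markers summed to 13.7 to 18.4 FPKM in db/db and 13.6 to 45.3 FPKM in WT, with the highest sum in WT 1 and 0 of the 4 tested past the threshold. The part of myelin in the Ndrg1 values was not tested.

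The paralogs of Ndrg1 were more abundant on average. Ndrg2, a gene of astrocytes and Müller glia, had 58.7, 42.3, 42.4 and 42.6 FPKM in db/db 1, 3, 4 and 5, against 39.5, 37.1, 36.5, 35.9 and 36.7 FPKM in WT 1 to 5. All db/db libraries were above all WT libraries, as for 5.2% of all genes tested. Ndrg2 had a log2 change of 0.30 (limma adjusted p = 0.151) and of 0.19 without db/db 1, where it passed (adjusted p = 0.0264). It was 1 of the 3 paralogs to pass in that fit, where 10.6% of all genes did. With the GC correction added it did not pass (0.15, adjusted p = 0.0646). The 8 Müller glia markers summed to 1346 to 1550 FPKM in db/db and 1247 to 1355 FPKM in WT, with 0 of the 8 past the threshold, and their part in the Ndrg2 values was not tested. Ndrg4 and Ndrg3 had log2 changes of 0.11 and -0.059 (adjusted p = 0.471 and 0.675), and of 0.027 and -0.011 with the GC correction.

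Bnip3 (ENSMUSG00000078566, chromosome 7, 138890836 to 138909519) encodes a mitochondrial outer membrane protein that HIF induces and that marks mitochondria for removal. It had 19.96, 21.9, 22.7 and 23.2 FPKM in db/db 1, 3, 4 and 5, against 23.3, 27.5, 30.7, 22.7 and 27.1 FPKM in WT 1 to 5. The db/db libraries filled the low end of the range, where WT 4 lay among them and WT 1 just above. The means were 21.9 ± 1.42 FPKM in db/db (SD, n = 4) and 26.3 ± 3.28 FPKM in WT (SD, n = 5), a log2 change of -0.24 (95% interval -0.45 to -0.032, limma adjusted p = 0.208). Its transcript has 41.6% GC, and the log2 change was -0.15 with the GC correction (adjusted p = 0.536) and -0.082 with the correction and db/db 1 left out (adjusted p = 0.639).

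The relative of Bnip3 in the same role, Bnip3l (NIX), had 26.3, 24.5, 21.5 and 20.2 FPKM in db/db 1, 3, 4 and 5, against 25.1, 26.2, 27.3, 24.4 and 27.2 FPKM in WT 1 to 5 (log2 change -0.17, limma adjusted p = 0.294; -0.074 with the GC correction). The ratio of Bnip3 to Bnip3l overlapped between the groups, at 0.760 to 1.15 in db/db and 0.930 to 1.12 in WT. In a list of 11 mitophagy receptors and LC3-family genes 0 passed, where 0.5% of all genes tested did. Its median log2 change was 0.095, beside 0.0035 over all genes tested. Fundc1, another hypoxia-linked mitophagy receptor, had -0.22 (adjusted p = 0.232), while Fkbp8 and the cargo adaptor gene Sqstm1 had 0.21 and 0.14 (adjusted p = 0.289 and 0.333). With the GC correction these were -0.043 for Fundc1, 0.067 for Fkbp8 and 0.064 for Sqstm1, and without db/db 1 Fkbp8 had 0.13 and Sqstm1 0.074. Fundc1 and Bnip3l had -0.28 and -0.23 without db/db 1 (limma adjusted p = 0.0507 and 0.0527). With the GC correction as well they had -0.084 and -0.11 (adjusted p = 0.509 and 0.177).

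Adm (ENSMUSG00000030790, chromosome 7, 110627661 to 110629820) encodes adrenomedullin, a vasodilator peptide secreted by vascular and other cells in hypoxia. It had 0.750, 0.375, 0.720 and 0.759 FPKM in db/db 1, 3, 4 and 5, against 0.323, 0.589, 1.06, 0.556 and 0.745 FPKM in WT 1 to 5. The values stood on 25 to 78 reads per library, and the db/db libraries lay inside the WT range. In a fit without the filter the log2 change was 0.0055 (95% interval -0.30 to 0.31), which covers folds of 0.815 to 1.24 on the FPKM + 1 scale and so says little of a gene this scarce. Its receptor is CALCRL joined to RAMP2 or RAMP3. Calcrl was also below the filter, at 0.333 to 0.766 FPKM in db/db and 0.705 to 0.916 FPKM in WT. Ramp2 stood at 1.69 ± 0.700 FPKM in db/db (SD, n = 4) and 1.54 ± 0.292 FPKM in WT (SD, n = 5).

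Ramp3 was the most abundant of these receptor genes, with 21.8, 11.2, 11.5 and 12.5 FPKM in db/db 1, 3, 4 and 5, against 10.3, 10.2, 10.4, 11.4 and 8.73 FPKM in WT 1 to 5. The value in db/db 1 was far above all others. Its log2 change of 0.40 (limma adjusted p = 0.251) was 0.19 without db/db 1 (adjusted p = 0.128) and 0.29 with the GC correction. Ramp1, which gives CALCRL specificity for CGRP, had 0.27 (adjusted p = 0.403) and 0.11 without db/db 1, and the related peptide gene Adm2 was at or below 0.107 FPKM in all 9 libraries.

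The wider set of HIF targets lay on both sides of zero. Of 36 targets outside glycolysis 26 were tested and 0 passed, where 0.5% of all genes tested did. Over all genes tested 7390 log2 changes were above zero and 7198 below, with a median of 0.0035 (-0.017 to 0.016 with 1 library left out). Of the 26 targets, 11 were above zero and 15 below, with a median of -0.026 (-0.11 to 0.013 with 1 library left out). The smallest p belonged to Tfrc, the transferrin receptor gene, at 18.7 ± 1.98 FPKM in db/db (SD, n = 4) and 25.5 ± 2.72 FPKM in WT (SD, n = 5; log2 change -0.43, limma adjusted p = 0.0735). Ero1l, an oxidase of protein folding in the endoplasmic reticulum, had -0.42 (adjusted p = 0.107), the adenylate kinase gene Ak4 -0.32 (adjusted p = 0.249) and the mitochondrial gene Ndufa4l2 0.40 (adjusted p = 0.238). Ndufa4l2 had 2.51 FPKM in db/db 1 and less in the other db/db libraries, and a log2 change of 0.22 without db/db 1. Vegfa, named for its place in diabetic eye disease and not by the rule, was 51.6 ± 8.75 FPKM in db/db (SD, n = 4) and 59.7 ± 4.19 FPKM in WT (SD, n = 5; log2 change -0.22, adjusted p = 0.329). Its level in db/db 1 was 38.7 FPKM, and without that library the log2 change was -0.092 (adjusted p = 0.332). Tfrc, with db/db 1 left out, passed as lower (-0.43, adjusted p = 0.0308) and the demethylase gene Kdm4b, named after its values were seen, as higher (0.18, adjusted p = 0.0332). These were 2 of the 26, where 10.6% of all genes passed in that fit. With the GC correction added neither passed (Tfrc -0.28, adjusted p = 0.0774; Kdm4b 0.069, adjusted p = 0.406).

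Of 18 glycolytic targets, all tested, 0 passed, where 0.5% of all genes tested did. They had 8 log2 changes above zero, 10 below and a median of -0.020 (-0.074 to 0.029 with 1 library left out). The median over all genes tested was 0.0035. The glucose transporter gene Slc2a1 was 72.9 to 82.8 FPKM in db/db and 63.1 to 72.5 FPKM in WT, and Aldoc, an aldolase of brain and retina, 182.4 to 222.3 FPKM in db/db and 162.0 to 179.3 FPKM in WT. Both pairs of groups lay apart with db/db higher (log2 changes 0.19 and 0.22, limma adjusted p = 0.167 and 0.174), as did 5.2% of all genes tested. Pdk1, the kinase that turns pyruvate away from the mitochondria, and the phosphofructokinase gene Pfkp had -0.22 and -0.28 (adjusted p = 0.219 and 0.234). Without db/db 1 Pfkp had -0.15, and with the GC correction Slc2a1 had 0.12 and Aldoc 0.17. Over all 7 lists, 84 of 96 genes were tested and 14 had an unadjusted p under 0.05, where 19.3% of all genes did. Of the 84, the groups lay apart with db/db higher in 5 and with db/db lower in 0. Over all genes tested these shares were 5.2% and 6.38%. Without db/db 1, 6 of the 84 passed, where 10.6% of all genes did. With the GC correction as well 4 passed, where 4.98% of all genes did, and Crebbp was the 1 gene that passed in both fits. The other 3 were Map1lc3a and Elob, lower (adjusted p = 0.0221 and 0.0457), and Vldlr, higher (adjusted p = 0.0425), named after their values were seen.

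**Figure D3:**
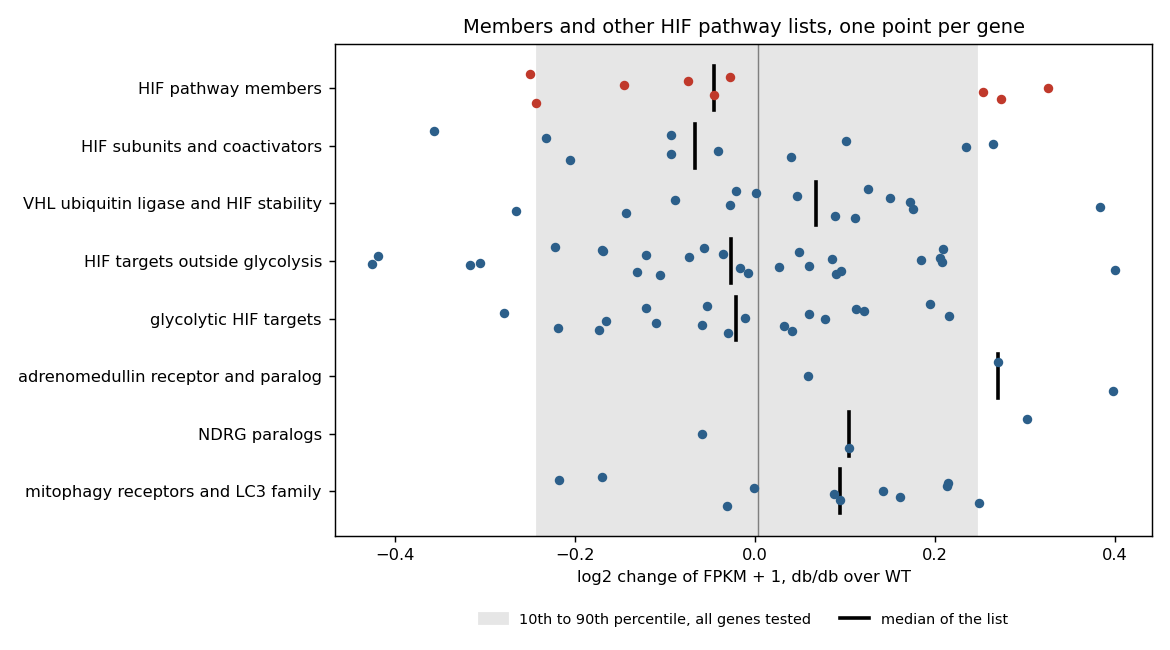
Log2 change of FPKM + 1, db/db over WT (x axis), for the tested HIF pathway genes (red) and for the tested genes of 7 further lists (blue), 1 point per gene, with a black bar at the median of each list and a grey band from the 10th to the 90th percentile of all genes tested. The HIF pathway genes fall on both sides of zero, from -0.25 for Hif1a to 0.33 for Egln2.

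The order of mean FPKM over all 9 libraries was Hif1a, Epas1, Ndrg1, Egln1, Bnip3, Egln2, Arnt, Vhl, Egln3 and Adm. Hif1a exceeded Epas1, Egln2 exceeded Arnt, Vhl exceeded Egln3 and Egln3 exceeded Adm in all 9 libraries. The neighbours Epas1 and Ndrg1, Egln1 and Bnip3, and Bnip3 and Egln2 could not be ordered, since the first of each pair was higher in 6, 3 and 6 of the 9 libraries. Over all genes tested, 2.66% stood above Hif1a in mean FPKM and 78.0% above Egln3.

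**Figure D4:**
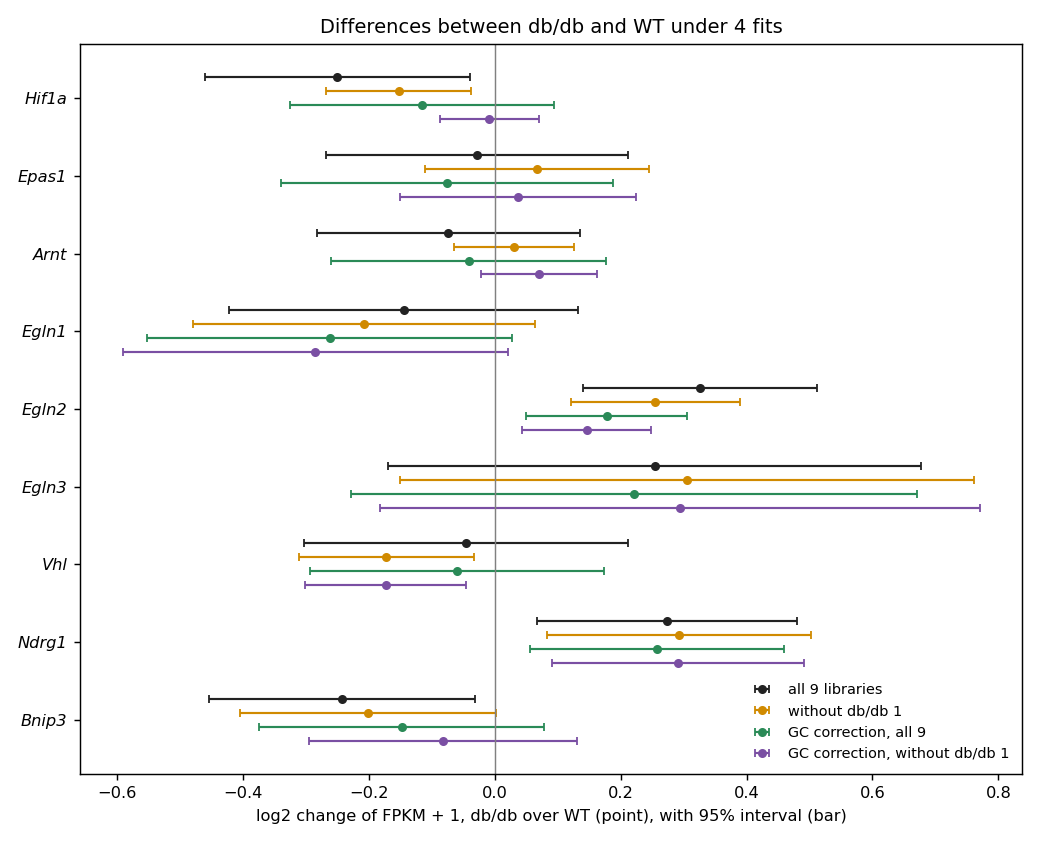
Log2 change of FPKM + 1, db/db over WT (x axis, points) with 95% intervals (bars) for the 9 tested genes under 4 fits: all 9 libraries, without db/db 1, with the GC correction, and with both. Hif1a moves from -0.25 to -0.0083 between the first and the last, Egln2 from 0.33 to 0.15, and Ndrg1 stays between 0.26 and 0.29.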

How the data were processed

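Retinal RNA was extracted with a column kit and libraries were made with a SMARTER kit, per the labels. The authors deposited 1 table of FPKM values for 35397 genes and 9 libraries. Per the submitters' processing notes, mm10 was the genome build. No source used here names an aligner, a counter, its strand setting or an annotation. Columns named Control or DR were matched to WT or db/db libraries by number, an inference from the names. Symbols and positions came from GENCODE M21 for 34499 identifiers.

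FPKM multiplied by union exon length moved in steps, and 98.9% to 99.1% of low values were whole within 0.1 read, which gave the depth of each library. Values were tested as log2(FPKM + 1), which understates changes of low genes, for the 14588 genes whose mean reached 1 FPKM. Fits used limma 3.58.1, run in R 4.3.3 (eBayes with an intensity trend, no covariate), with Benjamini-Hochberg adjustment over all genes and a threshold of 0.05. The limma fit was tested on simulated data, and the recovery of reads and the GC correction were not. The simulated noise was independent for each gene, with no library standing apart and no lean with GC content. The GC correction removed, per library, the median deviation in 20 bins of transcript GC content, known for 99.3% of tested genes. Alternatives, 20 in all, are given in the closing section. The equal-sum scaling and the fit without db/db 1 and 4 were chosen after seeing the data.

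The 10 genes and the other lists were chosen with earlier results of these data known. All 10 were named, and of each other list those past the threshold or otherwise the 4 with the smallest p, plus all tested NDRG paralogs, Hif3a, Arnt2, Hif1an and the adrenomedullin receptor genes. No protein sequence was used here.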

Additional observations from a re-analysis of the deposited data

Results flagged for a closer look

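In each group of 4 or 5 libraries, values were sought that stood farther from their group than Dixon's 95% limit allows, which compares the gap to the nearest value with the range of the group. Of 80 groups examined 8 were picked out, and chance picks out about 1 in 20. Among the HIF pathway genes these were Egln3 in db/db 4, at 4.99 FPKM against 2.02 to 2.40 FPKM in the other db/db libraries, and Adm in db/db 3, at 0.375 FPKM against 0.720 to 0.759 FPKM. In db/db 1 the values far from the other db/db libraries were those of Cited2 (55.1 FPKM against 42.2 to 43.7), Ndrg2 (58.7 FPKM against 42.3 to 42.6), Ramp1 (2.22 FPKM against 0.982 to 1.06) and Ramp3 (21.8 FPKM against 11.2 to 12.5), all higher, and that of Hif1an (16.3 FPKM against 21.9 to 23.0), lower. In WT 1 it was Arnt2, at 4.97 FPKM against 3.66 to 4.01 FPKM in the other WT libraries.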

How the results depend on the processing

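The joint fit named here combines correction for GC with omission of db/db 1. Over all genes that each fit tested, 34 were higher and 39 lower in db/db. These became 7 and 2 with no filter, 17 and 13 with a filter at a mean of 5 FPKM, 21 and 15 after scaling to equal sums, 5 and 1 with the GC correction, 378 and 343 in the joint fit, and 289 and 254 without db/db 1 and 4. The count of lower genes was 64 with limma-voom on the recovered reads. Leaving out 1 library at a time gave 3 to 688 higher and 1 to 852 lower genes, the largest of each without db/db 1, and the count moved by over 1.5 times whichever of the 9 was left out. Of the HIF pathway genes 0 passed, and 0 to 1 passed with a library left out, Egln2 without db/db 1. Of the 84 other pathway genes 0 passed, 0 to 6 with a library left out, 4 in the joint fit, and 1 without db/db 1 and 4. A pseudocount of 0.1, eBayes without a trend and median-of-ratios scaling left each of these counts within 1.5 times. Why the others moved was not tested.

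Some single-gene log2 changes turned sign. That of Epas1 was -0.027, and 0.0025 with the replicate block, which in effect leaves out WT 2. It was -0.093 to 0.067 with 1 library left out, 0.037 in the joint fit, and 0.016 without db/db 1 and 4. That of Arnt ran from -0.13 to 0.031 with 1 library left out and was 0.071 in the joint fit, and that of Vhl ran from -0.17 to 0.027 with 1 library left out. Hif1an ran from -0.088 to 0.067 with 1 library left out, and was 0.049 without db/db 1 and 4 and 0.055 in the joint fit. Ramp2 ran from -0.11 to 0.14 with 1 library left out, and was -0.066 without db/db 1 and 4, -0.060 after correction for GC alone and -0.20 in the joint fit. Of 733 values under the alternatives for the 37 tested genes that the naming rule chose, 18 turned sign and 5 newly passed. Genes named after their values were seen are not among the 37. In the joint fit Ndrg3 was 0.023 and Sp1 0.0040.

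Same-numbered libraries were not paired by the labels, and the correlations of their deviations were 0.043, 0.046, -0.18 and 0.13, and 2 of 8 libraries correlated best with their own number. The replicate block is a term for the library number. WT 2 has no db/db library of its number, so it adds nothing to the log2 changes of that fit. They equal those of the fit without WT 2 and are not a separate estimate. With the replicate block 2 genes were higher and 0 lower (limma adjusted p under 0.05), and 0 HIF pathway genes passed. Of the 10 HIF pathway genes, Adm had the fewest reads.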
